A study of Mus musculus with 8 samples.

Results

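mTOR is a serine/threonine kinase that works in 2 protein complexes, and the 10 genes described here encode its core subunits and the inhibitors that hold it back under stress. Mtor encodes the kinase. Rptor (Raptor) defines mTORC1, which promotes protein synthesis and ribosome production, and Rictor defines mTORC2, which phosphorylates AKT and related kinases. Deptor binds mTOR in both complexes and inhibits it, and Akt1s1 (PRAS40) inhibits mTORC1 through Raptor. Tsc2 encodes the GTPase-activating subunit of the TSC complex, which switches off RHEB, the activator of mTORC1. Ddit4 (REDD1) and its paralogue Ddit4l (REDD2) restrain mTORC1 through TSC, and the sestrins Sesn1 and Sesn2 restrain it through the amino acid sensing branch. In other systems Ddit4 is a known hypoxia-induced HIF target, and Sesn1 and Sesn2 are known p53 targets.

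The genes were taken by symbol from the table of raw counts, where 10 of 10 were found among 26667 genes. The set was selected on the difference in counts between KPH2 and KP tumours, with that of Deptor in view. All values of these genes in that comparison are therefore descriptions. Where some of them are counted as called, the count only sets them beside all genes and is no test of the set.

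RNA came from paraformaldehyde-fixed, paraffin-embedded tissue of hind limb undifferentiated pleomorphic sarcomas (UPS), an adult-type soft tissue sarcoma without a defined line of differentiation, with 1 library per tumour. KP mice carried Trp53 fl/fl, and KPH2 mice carried Trp53 fl/fl with Epas1 fl/fl, so both groups shared the loss of p53, and only KPH2 tumours were to lose HIF-2α, the product of Epas1. Mice of both groups had a mixed 129/C57BL/6 background and were of both sexes and at least 8 weeks old when adenovirus expressing Cre was injected into the hind limb muscle. The Cre acted on any cell it reached at that site, and host cells of the tumour kept their alleles. The time from injection to collection of each sequenced tumour is not given in the sources used here. There were 4 KP tumours (KP 5 to KP 8) and 4 KPH2 tumours (KPH2 1 to KPH2 4). The study left 1 knockout tumour out of its statistics as a technical outlier. Its text does not name that tumour and is not consistent about which group was the smaller. KPH2 1 is the tumour absent from the authors' normalised table of 7 tumours, so it is shown apart here. Comparisons of the 10 genes are given without and with it, and those of other pathway genes without it unless 8 tumours are named.

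Deposited counts summed to between 6463221 and 13155510 per tumour, and values are given as CPM, counts scaled to a library of 1000000 after TMM normalisation. Epas1, the floxed gene, stood between 59.6 and 85.5 CPM in KP and between 32.0 and 54.2 CPM in the 4 KPH2 tumours, without overlap. The genes of other cells also differed between tumours. The 30 skeletal muscle markers summed to between 1952 and 3604 CPM in KP tumours, to 4402, 13044 and 20303 CPM in KPH2 4, 2 and 3, and to 1514 CPM in KPH2 1. None of the 30 was at 0 in all tumours. All 30 had a positive log2 fold change over 7 tumours, beside 48% of all genes. At edgeR's adjusted p of 0.05, 3 were called higher over 7 tumours and 0 over 8, beside 1.24% and 0.00675% of all genes. Higher without overlap were 16 over 7 tumours and 1 over 8, beside 9.01% and 3.75% of all genes. At an unadjusted p of 0.05, 28 and 21 passed, beside 17.8% and 14.7% of all genes. The 8 macrophage markers summed to between 1978 and 3930 CPM in KP and between 1453 and 2163 CPM in KPH2 tumours, and the 8 mesenchymal markers to between 10016 and 25060 CPM over all 8 tumours. Of the mesenchymal markers, 1 was called lower over 7 tumours, beside 0.72% of all genes, and 0 over 8. It was Pdgfra, with 709 to 1503 CPM in KP, 227 to 274 CPM in KPH2 2 to KPH2 4 and 627 CPM in KPH2 1. Its log2 fold change was −2.02 over 7 tumours (edgeR adjusted p = 0.0183) and −1.54 over 8. The 9 endothelial markers summed to between 303 and 575 CPM in KP and between 224 and 320 CPM in KPH2 tumours. Of these 9, 4 were lower without overlap over 7 and over 8 tumours, beside 7.83% and 4.4% of all genes. The medians over the list were −0.55 and −0.62. In both sets 0 passed edgeR's adjusted p. At an unadjusted p of 0.05, 3 and 6 passed, beside 17.8% and 14.7% of all genes. Sums of T cell, adipocyte and nerve markers ran from 6.66 to 133 CPM per tumour and overlapped between the groups. In such bulk sections, more cells of a type and more RNA per cell cannot be told apart.

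Over the 7 tumours, 5 of the 10 genes had a log2 fold change above 0, beside 48% of the 14867 genes tested, and the median of the 10 was 0.19 beside −0.02 over all genes. At an adjusted p of 0.05, edgeR's test called 1 of the 10 genes, Deptor, beside 1.96% of all genes. Groups did not overlap for 4 of the 10 genes, Deptor, Ddit4l, Rptor and Tsc2, beside 16.8% of all genes. All 4 were higher in KPH2 2 to KPH2 4, as were 9.01% of all genes, and none was lower without overlap, beside 7.83% of all genes. With KPH2 1 included, 6 of the 10 genes were above 0, beside 50.9% of all genes. Deptor alone then kept its groups apart, beside 8.15% of all genes in either direction, 3.75% higher and 4.4% lower. None of the 10 genes passed the adjusted p over 8 tumours, beside 0.00675% of all genes. The other 6 genes overlapped between the groups in both sets. Because the genes were chosen with this contrast known, nothing is read from these counts.

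**Figure D1:**
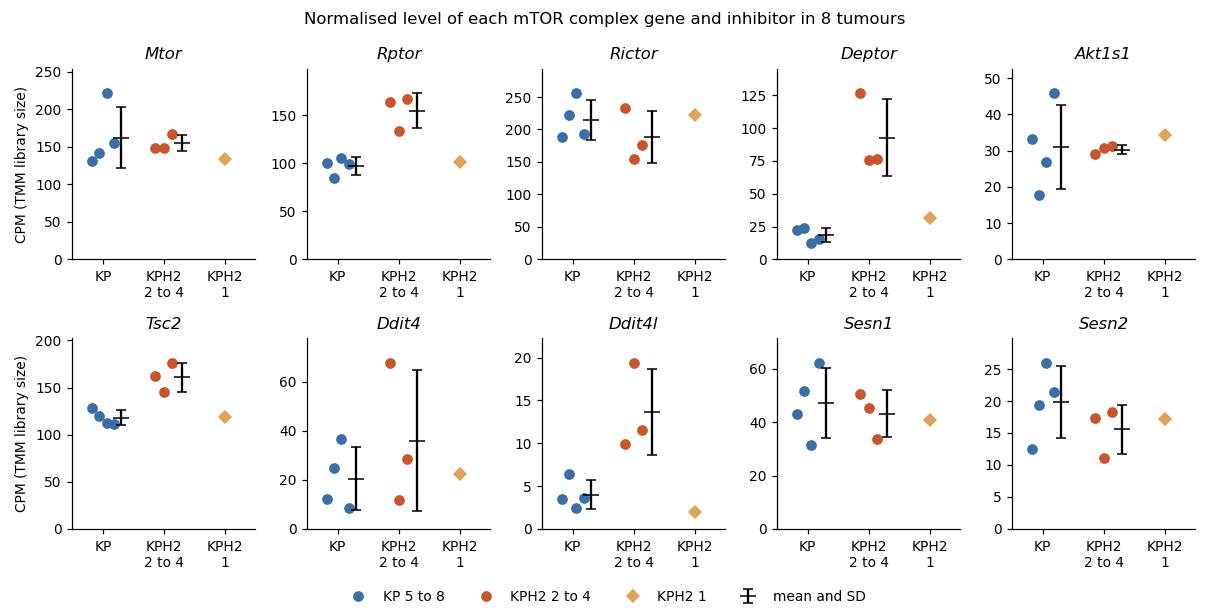
Normalised level (vertical axes from 0, CPM of the TMM library size) of each of the 10 genes in KP 5 to KP 8 (blue), KPH2 2 to KPH2 4 (orange) and KPH2 1 (yellow diamond). Bars show the mean and SD of the KP and the KPH2 2 to KPH2 4 tumours, and Deptor, Rptor, Tsc2 and Ddit4l are the genes whose KP and KPH2 2 to KPH2 4 points do not overlap.

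Deptor (Entrez Gene 97998) lies on chromosome 15 of GRCm38.p6 from 55112317 to 55259273. Its level was 22.1, 24.0, 12.1 and 15.6 CPM in KP 5 to KP 8, 126, 75.7 and 76.2 CPM in KPH2 2 to KPH2 4, and 31.9 CPM in KPH2 1. KPH2 2 was the highest, KPH2 3 and KPH2 4 were nearly equal, and KPH2 1 lay above the KP tumours and well below the other KPH2 tumours. Raw counts ran from 83 to 1383 reads per tumour, so counting error was small beside these differences. The mean of KPH2 2 to KPH2 4 was 5.02 times that of KP tumours. On the log2 scale the fitted difference was 2.31 (standard error 0.29), and 2.06 (standard error 0.39) with KPH2 1. This placed Deptor at percentile 98.6 of the log2 fold changes of all tested genes.

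The muscle markers moved with Deptor in part. KPH2 1 had the lowest muscle marker sum of all 8 tumours, 1514 CPM, and the lowest Deptor of the KPH2 tumours, 31.9 CPM. KPH2 4, whose muscle marker sum of 4402 CPM was the closest to the KP range among KPH2 2 to KPH2 4, had 76.2 CPM of Deptor, against a KP maximum of 24.0 CPM. Ttn gave 2793 CPM of that sum, and single markers differed in KPH2 4. Eno3 had 108 CPM, against at most 27.5 CPM in KP, whereas Acta1 had 167 CPM, inside the KP range of 54.1 to 196 CPM. KPH2 3, with the highest muscle sum, had less Deptor than KPH2 2. Fitted beside the mean log2 level of the muscle markers, Deptor had a log2 fold change of 2.03 (standard error 0.51), and with KPH2 2 and KPH2 3 both left out it was 2.05 (standard error 0.36). Deptor was not called in either fit, in which 3 of 14867 and 5 of 15661 tested genes were called.

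**Figure D2:**
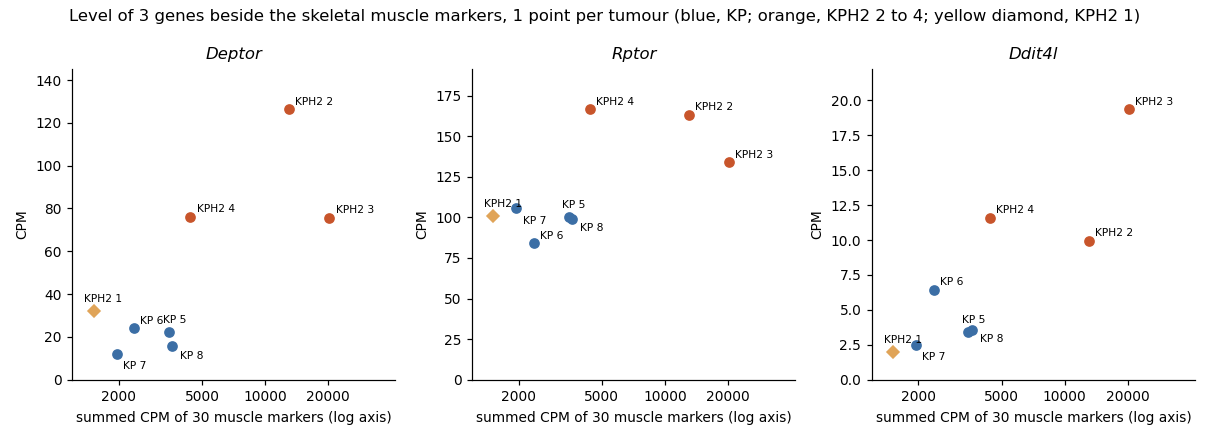
Level of Deptor, Rptor and Ddit4l (vertical axes, CPM) against the summed level of 30 skeletal muscle markers (horizontal log axis, CPM), with 1 point per tumour. KPH2 4 lies near the KP tumours on the horizontal axis at 4402 CPM, a sum weighted towards Ttn. It lies above them on the vertical axis for all 3 genes.

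By a rule on likeness, the genes nearest to Deptor were those whose log2 CPM, centred on its mean over the 8 tumours, had the smallest root mean square difference from that of Deptor. They were Myf6, Hook1, Fbxo32, Pard6b and Klf5, at differences of 0.37 to 0.38 on the log2 scale. Myf6, a myogenic transcription factor, had 0.729 to 1.53 CPM in KP, 4.61 to 8.13 CPM in KPH2 2 to KPH2 4 and 1.88 CPM in KPH2 1. Fbxo32, the muscle ubiquitin ligase subunit atrogin-1, had 14.3 to 26.5 CPM in KP, 71.3 to 92.0 CPM in KPH2 2 to KPH2 4 and 21.9 CPM in KPH2 1. Each of the nearest genes was highest in KPH2 2, as Deptor was. Hook1, which encodes a microtubule-binding adaptor, had 0.875 to 1.79 CPM in KP, at least 9.43 CPM in KPH2 2 to KPH2 4 and 2.04 CPM in KPH2 1. Pard6b, a cell polarity gene, had 0.229 to 0.448 CPM in KP, 1.57 to 2.29 CPM in KPH2 2 to KPH2 4 and 1.10 CPM in KPH2 1. Klf5, a transcription factor gene, had 1.26 to 2.62 CPM in KP, 5.72 to 14.9 CPM in KPH2 2 to KPH2 4 and 4.00 CPM in KPH2 1. As for Deptor, KPH2 1 lay above every KP tumour in Myf6, Hook1, Pard6b and Klf5, whereas it lay inside the KP range in Fbxo32. Among the other 9 genes of the set, Ddit4l was the nearest to Deptor, at 0.72 and rank 170 of 14866 genes, and Rptor and Tsc2 followed at ranks 525 and 895.

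The kinase itself and the other inhibitor bound to the complex overlapped between the groups. Mtor (Entrez Gene 56717, chromosome 4, 148448582 to 148557685) had 131, 142, 221 and 156 CPM in KP 5 to KP 8, 149, 149 and 168 CPM in KPH2 2 to KPH2 4, and 134 CPM in KPH2 1. KP 7 was the highest of all, and every KPH2 tumour lay inside the KP range. The log2 fold change was −0.08 (standard error 0.20) over 7 tumours and −0.12 (standard error 0.18) over 8. Akt1s1 (Entrez Gene 67605, chromosome 7, 44849224 to 44855421) had 33.3, 17.9, 27.0 and 45.8 CPM in KP 5 to KP 8, 29.0, 30.7 and 31.2 CPM in KPH2 2 to KPH2 4, and 34.2 CPM in KPH2 1. Its KPH2 values sat close together inside a wide KP range, with a log2 fold change of −0.05 (standard error 0.28) over 7 tumours and 0.01 (standard error 0.25) over 8. The log2 fold change of Deptor exceeded the median of the other 9 genes by 2.36.

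Of the subunits that define each complex, Rptor was higher in KPH2 2 to KPH2 4, and Rictor overlapped between the groups. Rptor (Entrez Gene 74370, chromosome 11, 119602905 to 119899591) had 100.4, 84.1, 106 and 98.9 CPM in KP 5 to KP 8, 163, 134 and 167 CPM in KPH2 2 to KPH2 4, and 101 CPM in KPH2 1. The KP tumours were tightly grouped, KPH2 2 to KPH2 4 were all above them, and KPH2 1 lay inside the KP range. Its log2 fold change was 0.66 (standard error 0.14), and 0.53 (standard error 0.17) with KPH2 1. Rictor (Entrez Gene 78757, chromosome 15, 6708349 to 6800401) had 188, 222, 255 and 193 CPM in KP 5 to KP 8, 233, 155 and 177 CPM in KPH2 2 to KPH2 4, and 223 CPM in KPH2 1. KPH2 3 and KPH2 4 lay under the KP tumours and the other KPH2 tumours among them, with a log2 fold change of −0.20 (standard error 0.19) over 7 tumours and −0.13 (standard error 0.18) over 8.

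Set against each other per kilobase of exon, Rptor stood at 0.754, 0.535, 0.584 and 0.722 times the level of Rictor in KP 5 to KP 8, at 0.988, 1.22 and 1.33 times in KPH2 2 to KPH2 4, and at 0.640 times in KPH2 1. KPH2 1 again lay with the KP tumours. Deptor stood at 0.054 to 0.168 times the level of Mtor per kilobase in KP tumours, at 0.448 to 0.837 times in KPH2 2 to KPH2 4, and at 0.235 times in KPH2 1, above every KP tumour. These ratios are within 1 library, and the scaling between libraries cancels in them.

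**Figure D3:**
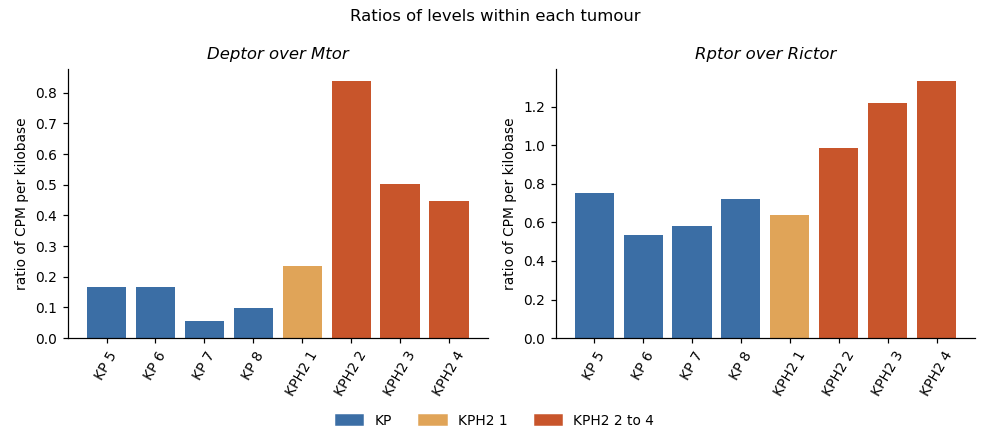
Ratio of CPM per kilobase of exon within each tumour, for Deptor over Mtor (left) and Rptor over Rictor (right), with bars from 0 for KP (blue), KPH2 1 (yellow) and KPH2 2 to KPH2 4 (orange). Rptor reaches between 0.988 and 1.33 times Rictor in KPH2 2 to KPH2 4 and stays at or below 0.754 times in the other tumours.

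The base composition of the mRNA, as percent GC, moved slightly with the comparison. Among 12358 tested genes with a matched mRNA (83.1% of those tested), split by GC content into 10 bins of like size, the median log2 fold change ran from −0.08 in the bin with the lowest GC content to 0.11 in the bin with the highest. Rptor had 56.5% GC, in a bin with a median of 0.06, and Rictor had 42.5% GC, in a bin with a median of −0.04. Deptor, at 44.3% GC, shared the bin of Rictor, and Ddit4l, at 46.3% GC, lay in a bin with a median of −0.05. The part of GC content in these differences was not tested.

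Tsc2 was higher in KPH2 2 to KPH2 4 and had the smallest spread of the set among KP tumours. The gene (Entrez Gene 22084, chromosome 17, 24595816 to 24632676) had 128, 120.0, 113 and 112 CPM in KP 5 to KP 8, 162, 145 and 176 CPM in KPH2 2 to KPH2 4, and 119 CPM in KPH2 1. The KP tumours and KPH2 1 lay close together, below KPH2 2 to KPH2 4. Its log2 fold change was 0.43 (standard error 0.13), and 0.34 (standard error 0.14) with KPH2 1. The SD of log2 CPM of Tsc2 among KP tumours was 0.09, at percentile 3.33 of all tested genes. Its partner Tsc1, from the list of growth factor inputs, had 66.5 to 91.9 CPM in KP and 73.5 to 85.2 CPM in the 4 KPH2 tumours.

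The REDD paralogues had different patterns. Ddit4 (Entrez Gene 74747, chromosome 10, 59949675 to 59951770) had 12.1, 24.9, 36.5 and 8.56 CPM in KP 5 to KP 8, 67.6, 11.6 and 28.6 CPM in KPH2 2 to KPH2 4, and 22.3 CPM in KPH2 1. KPH2 2 was far above all others, KPH2 3 was near the bottom, and the groups overlapped. The log2 fold change was 0.80 (standard error 0.65), and 0.66 (standard error 0.60) with KPH2 1, and the SD of log2 CPM among KP tumours, 0.94, was at percentile 92.5 of all tested genes. Without KPH2 2 the log2 fold change of Ddit4 was −0.03 (standard error 0.64). Ddit4l (Entrez Gene 73284, chromosome 3, 137623672 to 137628332) had 3.44, 6.43, 2.48 and 3.59 CPM in KP 5 to KP 8, 9.96, 19.4 and 11.6 CPM in KPH2 2 to KPH2 4, and 1.96 CPM in KPH2 1. KPH2 3 was the highest and KPH2 1 the lowest of all 8. Raw counts of Ddit4l were only 17 to 193 reads per tumour. Its log2 fold change was 1.77 (standard error 0.37), and 1.42 (standard error 0.59) with KPH2 1.

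KPH2 3, the highest tumour in Ddit4l, also had the highest muscle marker sum, and KPH2 1, the lowest in Ddit4l, had the lowest. Fitted beside the muscle markers, Ddit4l had a log2 fold change of 1.38 (standard error 0.68) and Ddit4 one of 2.38 (standard error 1.47). Ddit4 exceeded Ddit4l per kilobase in every tumour but KPH2 3, where it stood at 0.932 times the level of Ddit4l, beside 3.70 to 22.8 times in KP tumours.

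Since HIF proteins bind the core letters ACGTG or GCGTG, the 250 bases before the start of each stress-induced inhibitor were read for them on both strands, from RefSeq sequence of GRCm38.p6. Such a match stood in 38.6% of the 32851 start regions of that length. The windows of Ddit4, Ddit4l and Sesn2 are shown 5′ to 3′ along the gene, to set the known HIF target beside its paralogue and a sestrin, with the matches in capitals.
Ddit4, chr10:59951771-59952020, minus strand: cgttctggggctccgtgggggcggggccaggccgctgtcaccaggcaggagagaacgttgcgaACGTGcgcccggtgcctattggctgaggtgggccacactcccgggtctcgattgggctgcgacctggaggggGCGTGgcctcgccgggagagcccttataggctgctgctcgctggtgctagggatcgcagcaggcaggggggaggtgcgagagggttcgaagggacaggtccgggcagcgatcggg
Ddit4l, chr3:137623422-137623671, plus strand: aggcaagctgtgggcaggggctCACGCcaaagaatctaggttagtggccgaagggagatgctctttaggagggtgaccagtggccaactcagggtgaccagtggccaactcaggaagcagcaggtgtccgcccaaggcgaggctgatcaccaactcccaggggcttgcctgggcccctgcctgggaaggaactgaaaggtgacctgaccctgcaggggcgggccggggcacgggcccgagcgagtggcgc
Sesn2, chr4:132510457-132510706, minus strand: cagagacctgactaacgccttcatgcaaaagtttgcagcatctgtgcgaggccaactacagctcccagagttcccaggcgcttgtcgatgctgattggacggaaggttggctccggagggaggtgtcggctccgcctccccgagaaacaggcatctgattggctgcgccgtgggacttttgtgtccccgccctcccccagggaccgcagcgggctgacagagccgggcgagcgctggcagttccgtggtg

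The Ddit4 window held 2 matches, starting 187 and 115 bases before the start, the Ddit4l window held 1, at 228 bases, and the Sesn2 window held none. Of the windows not shown, Sesn1 has 2 starts, with no match before 1 of them and 2 matches before the other, at 147 and 55 bases. Akt1s1 and Rptor each held 2 matches, Rictor and Tsc2 each held 1, and Mtor held none. The letters TGATGNAAN, which the stress factor ATF4 binds with C/EBP proteins, were found in none of the 3 windows and in 3.44% of all windows. A match is a run of letters and no evidence of binding. A start region was matched for 9 of the 10 genes, all but Deptor.

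The sestrins gave no separation between groups. Sesn1 (Entrez Gene 140742, chromosome 10, 41810574 to 41908436) had 43.2, 51.8, 31.6 and 62.3 CPM in KP 5 to KP 8, 50.7, 45.4 and 33.7 CPM in KPH2 2 to KPH2 4, and 40.8 CPM in KPH2 1. Sesn2 (Entrez Gene 230784, chromosome 4, 132492804 to 132510456) had 12.5, 19.4, 26.0 and 21.4 CPM in KP 5 to KP 8, 17.4, 11.1 and 18.2 CPM in KPH2 2 to KPH2 4, and 17.2 CPM in KPH2 1. For Sesn1 every KPH2 tumour lay inside the KP range, and for Sesn2 every one but KPH2 3. The log2 fold changes were −0.14 (standard error 0.24) for Sesn1 and −0.36 (standard error 0.29) for Sesn2, and with KPH2 1 they were −0.15 (standard error 0.22) and −0.31 (standard error 0.26). Fitted beside the muscle markers they were −0.77 (standard error 0.39) and 0.33 (standard error 0.48). Sesn3, the third sestrin, had 26.1 to 64.4 CPM in KP and 21.8 to 60.7 CPM in the 4 KPH2 tumours. Trp53 itself, deleted by design in the tumour cells of both groups, still had 12.9 to 18.3 CPM in KP and 13.9 to 17.1 CPM in KPH2 tumours.

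**Figure D4:**
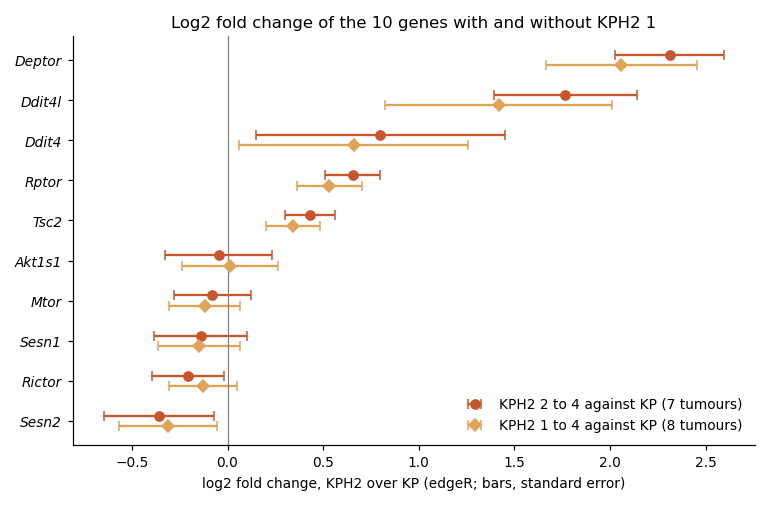
Log2 fold change of KPH2 over KP tumours (horizontal axis) from edgeR for each of the 10 genes, over 7 tumours (orange circles) and over all 8 (yellow diamonds), with bars for the standard error. Deptor has the highest value in both sets, 2.31 and 2.06, and Sesn2 the lowest, −0.36 and −0.31.

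Per kilobase of exon, which allows levels to be compared between genes, the order by median over the 8 tumours was Rictor, Tsc2, Mtor, Rptor, Akt1s1, Ddit4, Sesn1, Sesn2, Deptor and Ddit4l. The medians ran from 22.3 CPM per kilobase for Rictor to 1.84 for Ddit4l. In that order only Sesn1 over Sesn2 and Deptor over Ddit4l held in all 8 tumours, and every other pair of neighbours changed places in at least 1 tumour. Deptor stood at 2.13 ± 0.64 CPM per kilobase (SD, n = 4) in KP tumours, under the 5.70 ± 1.61 (SD, n = 4) of Sesn2. In KPH2 2 to KPH2 4 it stood at 10.7 ± 3.36 (SD, n = 3), over the 4.48 ± 1.11 (SD, n = 3) of Sesn2 and near the 10.9 ± 2.19 (SD, n = 3) of Sesn1. Mtor had 19.0 ± 4.75 (SD, n = 4) in KP and 18.1 ± 1.27 CPM per kilobase (SD, n = 3) in KPH2 2 to KPH2 4.

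The rest of the pathway was read in 110 further genes, in 9 lists set by function. With edgeR's quasi-likelihood test, adjusted over all genes by the Benjamini-Hochberg method, 0 of the 110 passed in either direction, over 7 tumours or over 8, beside 1.24% of all genes called higher and 0.72% called lower over 7. At an unadjusted p of 0.05, 14 of the 110 passed over 7 tumours and 11 over 8, beside 17.8% and 14.7% of all genes. These p-values measure the spread between the sampled tumours only. Without overlap over 7 tumours, 11 of the 110 were higher and 4 lower in KPH2, beside 9.01% and 7.83% of all genes. Over 8 tumours 5 were higher and 2 lower without overlap, beside 3.75% and 4.4% of all genes. DESeq2 called 6 of the 110, with Igf1r, Pik3r2, Prkag3 and Rragd higher and Epas1 and Prkca lower, beside 7.93% of all genes, 4.02% higher and 3.91% lower. Log2 fold changes of the 110 were split evenly over 7 tumours, 55 above and 55 below 0, with a median of 0.00. Over 8 tumours 60 were above and 50 below 0, with a median of 0.03, and the medians of the 9 lists ran from −0.45 to 0.18.

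**Figure D5:**
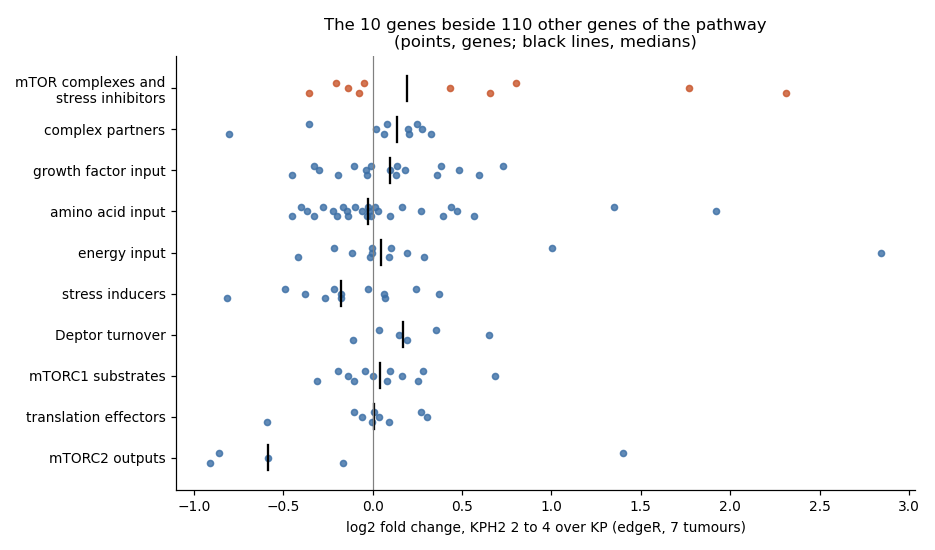
Log2 fold change of KPH2 2 to KPH2 4 over KP tumours (horizontal axis, edgeR, 7 tumours) for the 10 genes (orange) and for 110 other genes of the pathway in 9 lists (blue), with black lines at the medians. Deptor at 2.31 lies above all genes of the other lists except Prkag3 at 2.85.

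Among 10 further subunits and assembly factors, 8 had a log2 fold change above 0, with a median of 0.14. Mlst8, the subunit shared by both complexes, had 14.3 to 16.9 CPM in KP and 15.3 to 19.8 CPM in the 4 KPH2 tumours. Prr5l, an mTORC2 subunit, had 10.1, 12.9, 7.44 and 13.5 CPM in KP 5 to KP 8 and 5.88, 6.22, 6.32 and 6.52 CPM in KPH2 1 to KPH2 4. All 4 KPH2 tumours lay below every KP tumour, KPH2 1 included, with a log2 fold change of −0.80 (± 0.26 standard error, edgeR adjusted p = 0.15). Tti2, an assembly factor, had the highest value of this list at 0.32.

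The growth factor list of 17 genes had a median of 0.10. Igf1r, the IGF1 receptor, had 257, 273, 307 and 294 CPM in KP 5 to KP 8 and 379.8, 372, 418 and 405 CPM in KPH2 1 to KPH2 4. Every KPH2 tumour lay above every KP tumour, with a log2 fold change of 0.48 (± 0.14 standard error, edgeR adjusted p = 0.118). Pik3r2, a regulatory subunit of PI3-kinase, had the highest log2 fold change of the list, 0.73 (edgeR adjusted p = 0.125), and Pik3cb, a catalytic subunit, the lowest, −0.45 (edgeR adjusted p = 0.39).

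In the amino acid list of 27 genes the median was −0.02. Rragb, a RAG GTPase that recruits mTORC1 to lysosomes, had 1.87, 0.140, 0.292 and 0.458 CPM in KP 5 to KP 8 and 6.35, 3.66, 2.21 and 2.81 CPM in KPH2 1 to KPH2 4. The groups did not overlap, and KPH2 1 was the highest of all. Its log2 fold change was 1.92 (± 0.68 standard error, edgeR adjusted p = 0.193), and without KP 5 it was 3.13 (edgeR adjusted p = 0.0317, against 0.118 to 0.928 in the other alternatives that gave one, DESeq2 included). Rragd, a second RAG GTPase, had a log2 fold change of 1.35 (edgeR adjusted p = 0.0943), with its highest level, 34.6 CPM, in KPH2 3. It was 0.90 when fitted beside the muscle markers, 0.71 with KPH2 4 alone against the KP tumours, and 1.18 over 8 tumours. Fnip2, a folliculin partner, was the lowest of the list at −0.45 (edgeR adjusted p = 0.543).

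Among 12 genes of the energy branch the median was 0.05. Prkag3, a subunit of AMPK found mainly in skeletal muscle, had 8.33 and 10.3 CPM in KPH2 3 and KPH2 2 and 0 to 2.24 CPM in the other 6 tumours. Its high tumours were those with the highest muscle marker sums, and its log2 fold change of 2.85 (edgeR adjusted p = 0.14) was 0.82 when fitted beside the muscle markers. Camkk2, a kinase that activates AMPK, was the lowest at −0.42 (edgeR adjusted p = 0.197), and −0.22 over 8 tumours. The 12 stress inducers had a median of −0.18, with Epas1 the lowest at −0.81 (edgeR adjusted p = 0.0742) and Foxo1 the highest at 0.37 (edgeR adjusted p = 0.721), which was 0.13 over 8 tumours.

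The 6 genes that act on DEPTOR protein, whose turnover depends on phosphorylation and the β-TrCP ubiquitin ligase, had a median of 0.17. Btrc, which encodes β-TrCP1, was the highest, with at most 24.8 CPM in KP, 30.2 to 31.2 CPM in KPH2 2 to KPH2 4 and 21.0 CPM in KPH2 1. Its log2 fold change was 0.65 (± 0.22 standard error, edgeR adjusted p = 0.171), and Rbx1, a ligase subunit, was the lowest at −0.11 (edgeR adjusted p = 0.812).

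Downstream of the complexes, 12 mTORC1 substrates had a median of 0.04, from −0.31 for the kinase gene Rps6kb1 to 0.69 for Tfeb, a lysosomal transcription factor (edgeR adjusted p = 0.352 and 0.315), which were −0.11 and 0.44 over 8 tumours. The 9 translation effectors had a median of 0.01, from −0.59 for Eef2k to 0.31 for Eif4a1 (edgeR adjusted p = 0.3 and 0.338), which were −0.30 and 0.35 over 8 tumours. Eif4a1, the helicase of cap-dependent translation, had 415 to 534 CPM in KP and 552 to 643 CPM in the 4 KPH2 tumours, without overlap. The 5 genes below mTORC2 had a median of −0.59, with 4 of 5 below 0. Prkca, a protein kinase C gene, had 83.8 to 171 CPM in KP and 61.5 to 67.5 CPM in KPH2 2 to KPH2 4, a log2 fold change of −0.91 (edgeR adjusted p = 0.0926). KPH2 1 had 155 CPM of Prkca, inside the KP range, and with it included the log2 fold change of Prkca was −0.45 (edgeR adjusted p = 0.594). Sgk2 was the highest of this list at 1.40 (edgeR adjusted p = 0.325), at levels of 0.149 to 4.39 CPM.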

How the data were processed

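The authors aligned reads to GRCm38 with STAR 2.4, used HTSeq 0.6.1 to count those that aligned uniquely against RefSeq transcripts, and deposited raw counts for 8 tumours. The strand setting of the counting is not given in the sources used here. The authors also deposited log2 values from the regularized log of DESeq2 1.6, over 7 and over 8 tumours. The table of 7 set the samples, and its values served as an alternative.

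The tests were run with edgeR 4.0.16 under R 4.3.3 (TMM, low-count filter with a minimum count of 10 and a minimum total of 15, robust quasi-likelihood fit, no covariates, Benjamini-Hochberg adjustment over all genes). Standard errors are the log2 fold change divided by the square root of F. CPM per tumour used TMM over all 8 tumours, and log2 CPM a prior count of 2. Levels per kilobase used exons of GENCODE M21 transcripts paired with a RefSeq mRNA. DESeq2 1.42.0 and the other settings are given in the closing section. Depth was 6463221 to 13155510 counts.

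The genes and lists were chosen with earlier results of these data known. Named by rule were the 10 genes, Epas1, the highest and lowest gene of each pathway list and the 5 genes nearest Deptor. Igf1r, Rragd, Tsc1, Sesn3, Mlst8, Trp53 and the neighbours of Deptor were added after their values were seen. All 110 pathway genes and 78 of 79 marker genes were matched in the counts, older symbols through RefSeq synonyms. The fits were tested on simulated data. Replicate numbers differ between groups, so tumours were not paired. The labels give no batch and do not say whether mice were littermates. A further allele shared by both groups is not reported here.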

Additional observations from a re-analysis of the deposited data

Results flagged for a closer look

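Among the 20 groups of 4 tumours formed by the 10 genes in KP and in all KPH2 tumours, 1 tumour stood far from the other 3, where chance alone marks about 1 group in 20. KPH2 3 had 11.1 CPM of Sesn2, beside 17.2 to 18.2 CPM in KPH2 1, 2 and 4, and its gap to the nearest of them took 0.877 of the range of the log2 values.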

How the results depend on the processing

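The log2 fold change of Deptor was above 0 in all 17 alternatives, between 1.48 and 2.46, and from 2.03 to 2.46 with each tumour left out in turn. The lowest, 1.48, came from the authors' rlog values, which shrink differences by construction. Deptor exceeded the median of the other 9 genes by 1.46 on the rlog values, by 1.68 with the muscle score as a covariate and by 2.04 to 2.55 with a tumour left out. The median of the 10 genes, 0.19, was −0.02 to 0.29 with a tumour left out and 0.48 with the muscle score as a covariate. Ddit4l, Rptor and Tsc2 also stayed above 0 in all 17 alternatives, whereas Akt1s1, Ddit4, Mtor, Rictor, Sesn1 and Sesn2 each changed sign in 1 to 4 of them. Leaving out KPH2 2 and KPH2 3 together, a choice added after seeing the data, left only KPH2 4. Counts called are not given for that fit. The number of the 10 genes called was 1 with edgeR over 7 tumours and 0 over all 8 or with the muscle covariate. It was 2 without the filter on low counts, 4 with DESeq2 (Deptor, Ddit4l, Rptor and Tsc2), and 1 to 2 with a tumour left out (Ddit4l joined without KP 6). These counts describe genes selected on this contrast, and the counts over all genes below are their background. Pathway genes called higher were 4 with DESeq2 and 0 to 1 with a tumour left out, and those called lower were 2 and 0 to 1, where Rragb and Epas1 passed without KP 5, Rragb at a log2 fold change of 3.13. Over all genes, 292 were called, with 1 over all 8 tumours, 3 with the muscle covariate and 1179 with DESeq2. With a tumour left out 55 to 349 were called, lowest without KPH2 2. Every tumour left out but KP 5 moved the count of 292 by over 1.5 times. DESeq2's size factors, upper-quartile scaling, a mean count of at least 50 and edgeR without robust estimates left Deptor as the gene called. No paired analysis was possible because the groups share no replicate number. The log2 fold change of Ddit4 passed below 0 without KPH2 2. The causes were not tested. Low counts limit Ddit4l, Rragb and Sgk2 in particular.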

Other observations

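Around Deptor on chromosome 15, 9 further tested genes lay within 1000000 bases of its ends. Their log2 fold changes over 7 tumours had a median of 0.21. The nearest that do not overlap Deptor, Dscc1, Taf2 and Col14a1, had values of 0.21, 0.17 and 0.62. Gm9920, on the opposite strand and overlapping the start of Deptor, had the highest value, 1.84, from 2 to 5 raw counts in KP and 9 to 18 in the 4 KPH2 tumours, and its reads may not be separable from those of Deptor. Enpp2, which encodes the lysophospholipase autotaxin and lies 159528 bases from Deptor, had the lowest value, −1.74, with 275 to 918 raw counts in KP, 112 to 196 in KPH2 2 to KPH2 4 and 1091 in KPH2 1 (edgeR adjusted p = 0.0707 over 7 tumours).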
